A study of Mus musculus with 36 samples.

Results

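Cholangiocytes are the epithelial cells that line the bile ducts, where they modify bile by secreting fluid and bicarbonate. In chronic liver injury, including steatohepatitis, small bile duct-like structures expand from the portal tracts in what is called the ductular reaction, and these structures keep the keratins, junctions and surface proteins of biliary epithelium. Hepatocytes make up most of the liver's RNA, so in whole liver these genes are read against a large hepatocyte background. In such bulk samples fewer cells of a type and less RNA per cell cannot be told apart.

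The 8 genes described here, of 24421 in the count files, mark these cells and were chosen by symbol. They are the keratins Krt7, Krt19 and Krt23, the transcription factor Sox9, the surface proteins Epcam and Prom1, the tight junction protein Cldn4 and the chloride channel Cftr. Each symbol was present once in all 36 files.

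The livers came from male C57BL/6J mice, 7 weeks old at purchase, and all of them had first received the CDAHFD, a high-fat diet without added choline that induces steatohepatitis with fibrosis, for 12 weeks. In the HFD experiment, a high-fat diet containing choline was then given for 2 weeks with subcutaneous injections, once a week, of Fc at 4.3 mg/kg (n = 10) or Fc(mML1)B3 at 5 mg/kg (n = 10). In the standard diet experiment, mice changed to a standard diet for 10 days and received the same doses on days 1, 4 and 7 (n = 9 for Fc and n = 7 for Fc(mML1)B3). Fc is the constant part of an antibody and served as the control, and Fc(mML1)B3 is the same Fc carrying a macrocyclic peptide that binds Met, the receptor of hepatocyte growth factor. No liver taken before the injections was among the 36 libraries, so each value compares Fc(mML1)B3 with Fc or one experiment with the other. Total counts ran from 14949035 to 28466853 per library.

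The libraries carried the defining marks of liver. The summed level of 6 hepatocyte markers (Alb, Ttr, Apoa1, Cps1, Hnf4a and Pck1) was 69547 to 142477 CPM (counts per library total, TMM-scaled over the 36 libraries) per library, while the 8 biliary genes summed to 24.5 to 201 CPM. All 8 were detected in every library, and the lowest reading was 2 counts, for Cldn4 and for Cftr. Reads rather than read pairs were counted, so such a reading can come from a single fragment. Across libraries the median count was 470 for Sox9, 297.5 for Epcam, 123.5 for Prom1, 80.5 for Krt7, 55 for Krt23, 25 for Cldn4 and 22 for Cftr.

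On the mm10 build, none of the 8 genes shared exonic bases with another gene of the counting annotation. Epcam lies at chr17:87635979-87651127 on the plus strand, Krt7 at chr15:101412403-101427806 plus, Krt19 at chr11:100140811-100145919 minus, Krt23 at chr11:99477973-99493110 minus and Sox9 at chr11:112782210-112787757 plus. Cldn4, with 1 exon, lies at chr5:134945124-134946934 minus, Cftr with 27 exon blocks at chr6:18170687-18322769 plus, and Prom1 with 29 exon blocks at chr5:43993622-44101736 minus. Krt19, Krt23 and Sox9 are thus on the same chromosome, and Cldn4 and Prom1 share another.

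Most of these genes varied together from mouse to mouse, with the values given further on, so the 250 bases before the annotated start of 3 of them are shown: Epcam, the gene with the highest median correlation with the others, Krt7, and Krt23, a keratin without the GC-rich upstream sequence of Krt7. RefSeq promoter sequences on GRCm38.p6 matched 6 of the 8 symbols, those other than Krt19 and Sox9. Capitals mark the GC box GGGCGG on either strand (CCGCCC on the printed strand when reversed) and the SOX-type motif ACAATG on either strand. The sequences read 5′ to 3′ on each gene's own strand, from chr17:87635729-87635978 (plus) for Epcam, chr15:101412153-101412402 (plus) for Krt7 and chr11:99493121-99493370 (minus) for Krt23.
Epcam: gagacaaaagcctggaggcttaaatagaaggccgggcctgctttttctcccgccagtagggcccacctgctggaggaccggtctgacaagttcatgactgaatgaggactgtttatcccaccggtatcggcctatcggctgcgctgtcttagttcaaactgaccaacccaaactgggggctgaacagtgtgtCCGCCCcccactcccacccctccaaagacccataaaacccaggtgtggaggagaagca
Krt7: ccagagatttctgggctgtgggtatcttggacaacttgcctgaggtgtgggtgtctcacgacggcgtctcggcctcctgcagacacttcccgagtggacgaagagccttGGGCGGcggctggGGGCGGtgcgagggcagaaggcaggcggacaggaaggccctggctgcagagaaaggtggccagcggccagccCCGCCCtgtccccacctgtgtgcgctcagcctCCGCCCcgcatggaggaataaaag
Krt23: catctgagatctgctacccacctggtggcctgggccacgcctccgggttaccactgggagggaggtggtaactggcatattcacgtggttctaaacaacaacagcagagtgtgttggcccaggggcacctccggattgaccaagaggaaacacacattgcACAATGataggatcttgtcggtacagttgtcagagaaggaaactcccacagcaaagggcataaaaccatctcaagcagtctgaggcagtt

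The GC box was present 4 times before Krt7, 1 time before Epcam and nowhere in the Krt23 window, and 32.7% of all 32851 promoters in the table held it in their 250 bases. Krt23 instead had 1 copy of the SOX-type motif, which 10.7% of the promoters held. Cftr had the densest sequence of the 6, with 6 GC boxes, 30 CpG dinucleotides and a GC content of 76.4%, against a median of 52.4% over the table. Cldn4 had 1 GC box, and of the 2 starts listed for Prom1 the upstream one had 1 and the other none. These matches describe letters in a fixed window and were not tested for use by any factor.

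Levels that can be compared between genes are those per length, given here as RPKM, CPM divided by the exon length in kilobases. Over all 36 mice the median RPKM was 5.84 for Epcam, 5.57 for Sox9, 4.25 for Krt19, 2.18 for Krt7, 1.55 for Krt23, 1.37 for Prom1, 0.578 for Cldn4 and 0.167 for Cftr. Krt19 exceeded Krt7 in 36 of 36 mice and Cldn4 exceeded Cftr in 36 of 36, so these steps of the order held in every library. Epcam and Sox9 were less separated, with Epcam the higher in 25 of 36 mice, and Krt23 exceeded Prom1 in 25 of 36. Krt7 and Krt23 were likewise close in the Fc mice under the standard diet, with median RPKM of 1.63 and 1.58.

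The medians of Epcam and Sox9 changed places between groups. Epcam had the higher median RPKM in Fc mice under the HFD, at 12.2 against 6.34 for Sox9, whereas in Fc(mML1)B3 mice under the HFD the medians were 5.98 for Epcam and 7.38 for Sox9. Within single libraries the change was smaller: Epcam exceeded Sox9 in 8 of 10 Fc mice under the HFD, and Sox9 exceeded Epcam in 3 of 10 Fc(mML1)B3 mice under the HFD and in 4 of 9 Fc mice under the standard diet. Sox9 and Epcam therefore did not have a fixed order beyond the spread between mice.

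**Figure D1:**
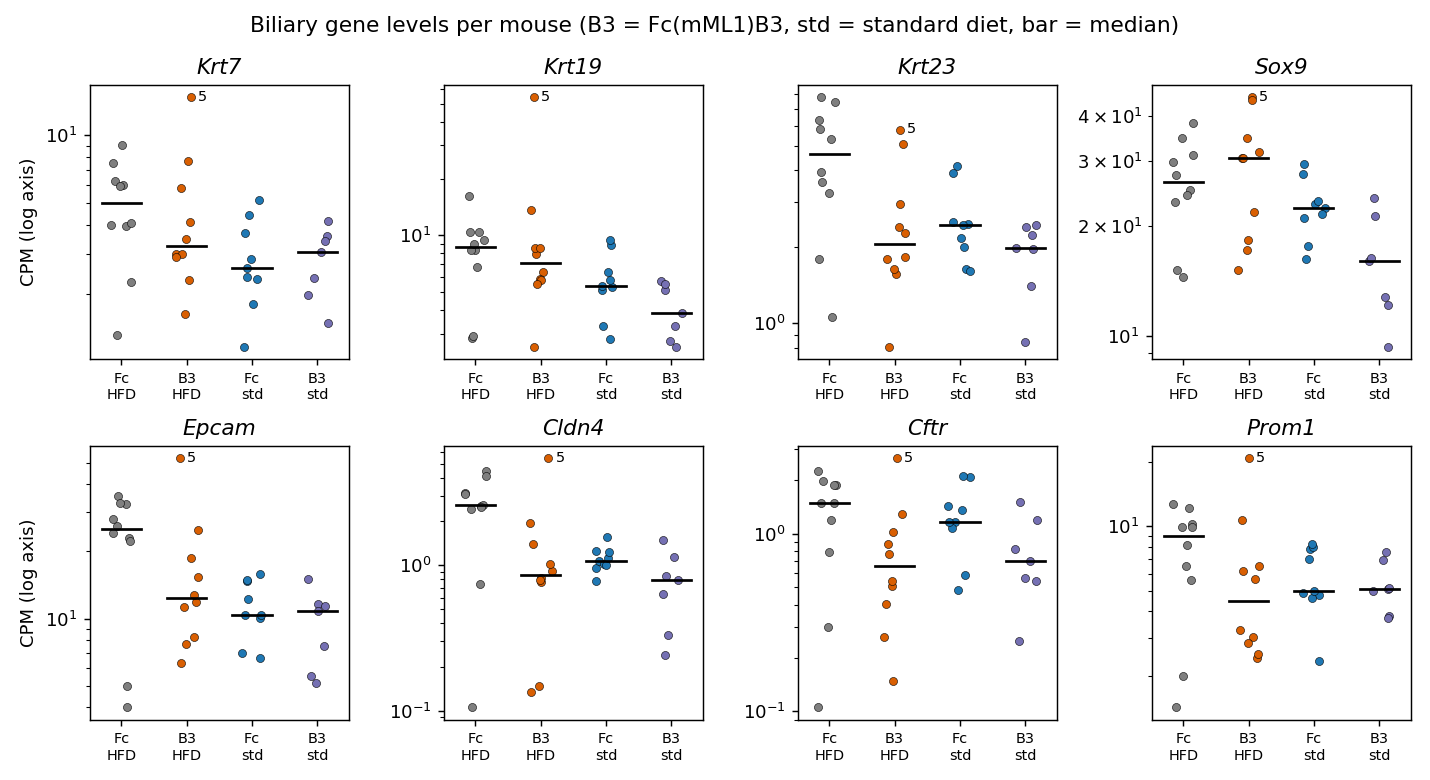
Level of each of the 8 genes in every mouse, in CPM on a log axis, by group (B3 stands for Fc(mML1)B3 and std for the standard diet). Points are mice and bars are medians, and the point marked 5 is mouse 5 of the Fc(mML1)B3 HFD group, which was the highest of its group for all 8 genes.

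The first comparison asked whether Fc(mML1)B3 changed the biliary genes in mice refed the HFD. None of the 8 passed edgeR's quasi-likelihood test, Benjamini-Hochberg adjusted over 13299 genes, at an adjusted p below 0.05, the rule for every call below, which carries no limit on fold. Over all genes, 6.68% were called lower and 8.14% higher. At an unadjusted p below 0.05, 1 of the 8 (Krt23) passed, and DESeq2 called 0. For 6 of the 8 genes the estimate was lower in Fc(mML1)B3 mice, with a median log2 fold change of -0.36 for the 8 genes beside -0.01 for all genes tested.

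Krt23, a keratin used as a marker of reactive ductular cells, measured 1.05 to 7.75 CPM with a median of 4.63 in Fc mice and 0.810 to 5.79 CPM with a median of 2.05 in Fc(mML1)B3 mice. In all, 8 Fc(mML1)B3 mice were below the Fc median, and the groups overlapped over most of their range. The log2 fold change was -0.80 ± 0.33 (SE; adjusted p = 0.106 by the edgeR quasi-likelihood test, Benjamini-Hochberg adjusted), and a permutation test of log2(CPM + 0.5) gave an unadjusted two-sided p of 0.0462 over 100000 resamples.

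Cldn4, which seals the paracellular space between epithelial cells, had a median of 2.59 CPM (0.105 to 4.45) in Fc mice and 0.862 CPM (0.135 to 5.45) in Fc(mML1)B3 mice. All Fc(mML1)B3 mice but mouse 5 were below the Fc median, and mouse 5 was above every Fc mouse. Its log2 fold change of -0.91 ± 0.48 had an adjusted p of 0.209 by the edgeR quasi-likelihood test, Benjamini-Hochberg adjusted. The permutation test gave an unadjusted two-sided p of 0.0557 with 0.5 added to CPM and 0.0469 with 2 added.

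Krt23 and Cldn4 both depended on single mice. Without mouse 5 of the Fc(mML1)B3 group, the edgeR quasi-likelihood test called Cldn4 lower (log2 fold change -1.46, adjusted p = 0.0185) and Krt23 lower (-0.99, adjusted p = 0.0312), giving 2 of the 8 genes. Without mouse 3 of the Fc group, Krt23 alone was called. Every other omission of 1 mouse left the count at 0.

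Krt19, a keratin of all mature bile duct cells, ran from 2.85 to 16.1 CPM (median 8.70) in Fc mice and from 2.56 to 54.0 CPM (median 7.14) in Fc(mML1)B3 mice. The mean was higher in Fc(mML1)B3 mice, at 11.9 against 8.47 CPM, while 8 of 10 of them lay below the Fc median. The fitted log2 fold change was 0.49 ± 0.42 (adjusted p = 0.45 by the edgeR quasi-likelihood test, Benjamini-Hochberg adjusted). Its sign rested on mouse 5, whose 54.0 CPM stood far above the next mouse at 13.6 CPM, and without that mouse the estimate was -0.20, as it was with DESeq2 over all 20 mice.

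Krt7, the second keratin of mature ducts, had a log2 fold change of -0.04 ± 0.35 with a 95% interval from -0.72 to 0.64, and medians of 5.03 CPM (1.32 to 9.08) with Fc and 3.24 CPM (1.63 to 14.7) with Fc(mML1)B3. In all, 7 Fc(mML1)B3 mice were below the Fc median and 1 was above every Fc mouse.

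Sox9, which specifies the biliary lineage and is also made by some periportal hepatocytes, had medians of 26.3 CPM (14.4 to 38.3) with Fc and 30.6 CPM (15.1 to 44.9) with Fc(mML1)B3. Only 4 of 10 Fc(mML1)B3 mice were below the Fc median and 2 were above every Fc mouse, so Sox9 showed the opposite lean from Krt23 and Cldn4. The log2 fold change was 0.14 ± 0.20, with a 95% interval from -0.25 to 0.53.

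Epcam, an adhesion protein of biliary and progenitor-like epithelium, had medians of 25.2 CPM (4.01 to 35.6) with Fc and 12.3 CPM (6.34 to 52.3) with Fc(mML1)B3. Of the Fc(mML1)B3 mice, 9 of 10 were below the Fc median, but Fc mice 3 and 5 were lower still than all of them. The log2 fold change was -0.45 ± 0.37, with a 95% interval from -1.18 to 0.28.

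Prom1, a membrane glycoprotein of ductular and progenitor-like cells, had medians of 9.01 CPM (1.42 to 12.8) with Fc and 4.46 CPM (2.43 to 20.8) with Fc(mML1)B3. Its log2 fold change was -0.28 ± 0.39. Cftr, which drives chloride and bicarbonate into bile, had medians of 1.496 CPM (0.105 to 2.26) and 0.657 CPM (0.148 to 2.67) and a log2 fold change of -0.61 ± 0.43. For Prom1 8 of 10 and for Cftr 9 of 10 Fc(mML1)B3 mice were below the Fc median, and for both genes the ranges overlapped. Without mouse 5 of the Fc(mML1)B3 group the log2 fold changes were -0.81 for Epcam (adjusted p = 0.0744 by the edgeR quasi-likelihood test, Benjamini-Hochberg adjusted), -0.96 for Cftr and -0.68 for Prom1, and none of the 3 was called. Omissions of 1 mouse took the Sox9 estimate from 0.059 to 0.23.

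The mice at the ends of these ranges were the same from gene to gene. Mouse 5 of the Fc(mML1)B3 group was the highest of its group for all 8 genes and mouse 8 the second highest for all 8. Among Fc mice, mouse 3 was the lowest for 7 genes and mouse 5 for Prom1. Other cell type markers moved with them: mouse 5 of the Fc(mML1)B3 group had the lowest hepatocyte sum of all libraries (69547 CPM) and the highest sum of stellate cell and myofibroblast markers (599 CPM), and Fc mouse 3 had the highest hepatocyte sum of its group (133486 CPM) and the lowest stellate sum (233 CPM). The part of these other cells in the biliary values was not tested. In this experiment the count files' headers number the Fc libraries and the Fc(mML1)B3 libraries in separate runs, so the run of library numbers and the injected protein cannot be told apart. The Fc(mML1)B3 libraries themselves fall in a run of 4 and a run of 6, and against all Fc libraries the 8 estimates were lower with the run of 4. Mice 5 and 8, the highest and second highest of the group, are both in the run of 6. The part of these mice in the difference between the runs was not tested. Epcam was at -0.96 with the run of 4 and -0.17 with the run of 6, Cftr at -1.13 and -0.33, Cldn4 at -1.35 and -0.66, Krt23 at -1.15 and -0.58, Krt19 at -0.20 and 0.84, and Sox9 at -0.28 and 0.38, and none was called in either.

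The second comparison asked the same in mice refed the standard diet. Sox9 was the 1 gene of 8 called lower, beside 7.55% of all 13570 genes called lower and 8.56% called higher. All 8 estimates were lower in Fc(mML1)B3 mice, with a median log2 fold change of -0.47 for the 8 genes beside -0.01 for all genes, of which 52.5% had a lower estimate.

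Sox9 had a median of 22.4 CPM (16.3 to 29.5) in Fc mice and 16.0 CPM (9.35 to 23.8) in Fc(mML1)B3 mice. Of 7 Fc(mML1)B3 mice, 6 were below the Fc median and 4 were below every Fc mouse. The log2 fold change was -0.50 ± 0.16 (adjusted p = 0.0402 by the edgeR quasi-likelihood test, Benjamini-Hochberg adjusted), a fold of 0.709. An exact two-sided permutation test over all 11440 groupings of the mice gave an unadjusted p of 0.0120.

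The Sox9 call was not stable. Leaving out 1 mouse at a time ended it in 10 of 16 fits (Fc mice 1, 2, 4, 5 and 9 and Fc(mML1)B3 mice 1, 3, 4, 6 and 7), with log2 fold changes between -0.62 and -0.40 and adjusted p between 0.0104 and 0.088 by the edgeR quasi-likelihood test, Benjamini-Hochberg adjusted. By the headers' numbers, 5 Fc libraries formed a run of their own and the other 4 shared a run with all 7 Fc(mML1)B3 libraries. Sox9 was 21.0 to 29.5 CPM in those 5 and 16.3 to 23.4 CPM in those 4, and within the shared run the log2 fold change was -0.31 (adjusted p = 0.393 by the same edgeR test).

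The 3 keratins were not called, and differences among them were not tested. Krt19 had medians of 5.38 CPM (2.82 to 9.45) with Fc and 3.85 CPM (2.56 to 5.70) with Fc(mML1)B3, a log2 fold change of -0.51 ± 0.23 whose adjusted p of 0.148 by the edgeR quasi-likelihood test missed the threshold. Krt23 had medians of 2.43 CPM (1.60 to 4.16) and 1.97 CPM (0.846 to 2.44) and a log2 fold change of -0.43 ± 0.23, with 6 of 7 Fc(mML1)B3 mice below the Fc median. Krt7 had medians of 2.59 CPM (1.17 to 5.18) and 3.03 CPM (1.49 to 4.18), and its log2 fold change of -0.05 ± 0.26 had a 95% interval from -0.55 to 0.46. None of the 3 separated the groups.

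Cftr, at medians of 1.17 CPM (0.484 to 2.12) with Fc and 0.708 CPM (0.248 to 1.51) with Fc(mML1)B3, had the lowest estimate of the 8, a log2 fold change of -0.68 ± 0.33 (adjusted p = 0.176 by the edgeR quasi-likelihood test, Benjamini-Hochberg adjusted). Cldn4 had medians of 1.07 CPM (0.777 to 1.56) and 0.795 CPM (0.242 to 1.499), with 3 Fc(mML1)B3 mice below every Fc mouse. Its log2 fold change was -0.50 ± 0.28 and the exact permutation test gave an unadjusted p of 0.0490, which became 0.0589 with 2 in place of 0.5 added to CPM.

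Epcam and Prom1 had medians that lay close together. Epcam had medians of 10.4 CPM (6.67 to 15.9) with Fc and 10.8 CPM (5.13 to 15.1) with Fc(mML1)B3, and a log2 fold change of -0.25 with a 95% interval from -0.68 to 0.17. Prom1 had medians of 5.00 CPM (2.33 to 8.22) and 5.11 CPM (3.70 to 7.61), and a log2 fold change of -0.14 with an interval from -0.55 to 0.27. In each of these genes 3 of 7 Fc(mML1)B3 mice lay below the Fc median, and for Epcam 2 of them were below every Fc mouse. Omissions of 1 mouse took Epcam from -0.40 to -0.15 and Prom1 from -0.25 to -0.068. Within the shared run of library numbers Epcam was at -0.38, Prom1 at -0.41, Krt7 at -0.45 and Krt23 at -0.75, each further from 0 than over all 16 mice and none called.

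**Figure D2:**
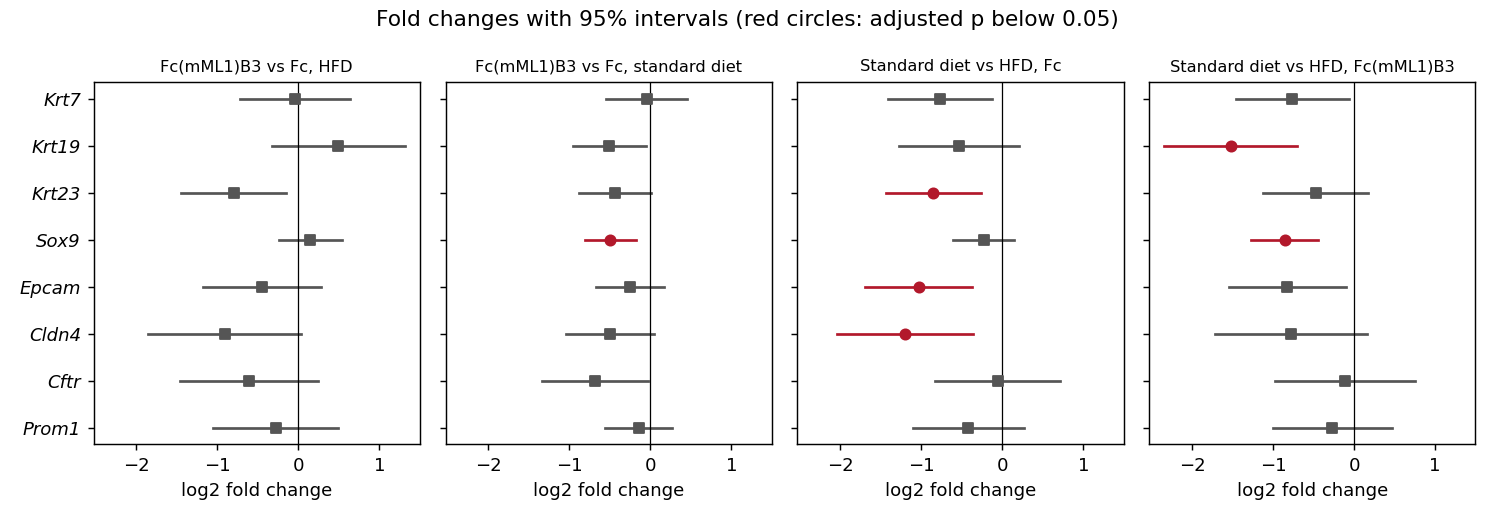
Log2 fold change of each gene in the 4 comparisons, with 95% intervals from edgeR's quasi-likelihood fit. Red circles are genes called at an adjusted p below 0.05 and grey squares are genes that were not: no gene under the HFD, Sox9 under the standard diet, Krt23, Epcam and Cldn4 between the diets in Fc mice, and Krt19 and Sox9 between the diets in Fc(mML1)B3 mice.

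The effect of Fc(mML1)B3 was then compared between the diets in 1 fit over the 36 libraries. None of the 8 genes was called for that difference, where 4.4% of 14105 genes were called in the lower and 4.66% in the higher direction. At an unadjusted p below 0.05, 1 of 8 (Sox9) passed, and DESeq2 called 0. The difference of the effects, standard diet minus HFD, was -0.63 ± 0.28 on the log2 scale for Sox9 (adjusted p = 0.183 by the edgeR quasi-likelihood test, Benjamini-Hochberg adjusted) and -0.99 ± 0.55 for Krt19 (adjusted p = 0.313), and the other 6 genes had adjusted p of 0.714 or more. Without mouse 5 of the Fc(mML1)B3 HFD group the Krt19 difference shrank to -0.28, and those of Cldn4 and Epcam went from 0.42 to 0.98 and from 0.21 to 0.58.

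Between the diets, several biliary genes were lower in the standard diet experiment. All 8 estimates were negative in Fc mice and all 8 in Fc(mML1)B3 mice, and the calls were Krt23, Epcam and Cldn4 in the former and Krt19 and Sox9 in the latter. These 3 of 8 and 2 of 8 stand beside 24.6% and 17.9% of all genes called lower (23.3% and 20.7% higher) over 14105 genes. The median log2 fold change of the 8 genes was -0.65 in Fc mice beside -0.05 for all genes, and -0.77 in Fc(mML1)B3 mice beside -0.02. The diets were separate experiments that also differed in days and number of injections, and these cannot be told apart. The Fc libraries used here are the same ones that served as controls within each diet.

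In Fc mice, Epcam went from a median of 25.2 CPM under the HFD to 10.4 CPM under the standard diet, where all 9 mice were below the HFD median. Its log2 fold change was -1.03 ± 0.34 (adjusted p = 0.0113 by the edgeR quasi-likelihood test, Benjamini-Hochberg adjusted). Cldn4 fell by 1.203 ± 0.43 on the log2 scale (adjusted p = 0.0194 by the same edgeR test), from a median of 2.59 to 1.07 CPM, and Krt23 fell by 0.85 ± 0.30 (adjusted p = 0.0183), from 4.63 to 2.43 CPM. All 9 standard diet mice were below the HFD median for Cldn4 and for Krt23 too, yet Fc HFD mice 3 and 5 were below every standard diet mouse for Epcam and Cldn4, and mouse 3 for Krt23, so the groups overlapped. The 3 calls held in all 36 omissions of 1 mouse.

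The other genes moved less in Fc mice. Krt7 had a log2 fold change of -0.77 ± 0.33 at an adjusted p of 0.0516 by the edgeR quasi-likelihood test, Benjamini-Hochberg adjusted, just short of the threshold, and it was called with DESeq2 (adjusted p = 0.0459), with upper quartile scaling (0.0318), with median-of-ratios factors (0.0484), with a filter at 1 CPM (0.0482) and in 9 of the 36 edgeR fits that left out 1 mouse. Cftr had a log2 fold change of -0.06 with a 95% interval from -0.82 to 0.71, Sox9 of -0.23 (-0.61 to 0.15), Prom1 of -0.42 (-1.10 to 0.26) and Krt19 of -0.53 (-1.27 to 0.20). All 9 standard diet mice were nonetheless below the HFD median of Prom1.

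In Fc(mML1)B3 mice the called genes were Krt19, with a log2 fold change of -1.53 ± 0.42 (adjusted p = 0.0037 by the edgeR quasi-likelihood test, Benjamini-Hochberg adjusted), and Sox9, with -0.86 ± 0.21 (adjusted p = 0.00136). All 7 standard diet mice were below the HFD median for both genes. Sox9 went from a median of 30.6 to 16.0 CPM, with 3 standard diet mice below every HFD mouse, and no omission of 1 mouse ended its call. Krt19 went from 7.14 to 3.85 CPM, and without HFD mouse 5 its log2 fold change shrank to -0.82 and stayed called. Epcam (-0.83 ± 0.37, adjusted p = 0.0715 by the same edgeR test), Krt7 (-0.77 ± 0.36, adjusted p = 0.0845), Cldn4 (-0.78 ± 0.48), Krt23 (-0.48 ± 0.33), Prom1 (-0.27 ± 0.37) and Cftr (-0.11 ± 0.44) were not called. Without HFD mouse 5 Epcam was at -0.46, Krt7 at -0.42, Cldn4 at -0.23 and Krt23 at -0.29, and Prom1 (0.13) and Cftr (0.24) turned positive.

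Cell type markers moved with the diets as well. Of the 6 stellate cell and myofibroblast markers, Des, Col1a1, Pdgfrb and Acta2 were called lower in Fc mice under the standard diet, and the sum of the 6 went from a median of 434 CPM (233 to 512) to 258 CPM (223 to 378), while in Fc(mML1)B3 mice 3 were lower and the sum went from 287 CPM (207 to 599) to 227 CPM (196 to 256). Of the 6 macrophage markers, Cd68, Trem2 and Gpnmb were lower under the standard diet with both proteins, and the sums of the 6 went from 712 to 557 CPM with Fc and from 634 to 442 CPM with Fc(mML1)B3. Of the 6 hepatocyte markers, 2 were higher and none lower in either group, and Hnf4a was the 1 marker of all 7 lists called for the difference of the effects. Beside these counts stand 24.6% of all genes called lower and 23.3% higher in Fc mice, and 17.9% and 20.7% in Fc(mML1)B3 mice. For the difference of the effects 4.4% of all genes were called in the lower and 4.66% in the higher direction. The part of these marker shifts in the biliary values was not tested.

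Markers of other epithelia that could be carried over with liver were measured too. The 5 pancreatic acinar markers summed to 0 to 3.62 CPM per library, the highest in mouse 5 of the Fc(mML1)B3 HFD group, and Cela2a was the only one that passed the filter on low counts. The 6 mesothelial markers summed to 5.53 to 33.3 CPM, and of these Wt1 was lower under the standard diet with both proteins. Lrrn4 was called higher under the standard diet in Fc(mML1)B3 mice, but it was under the filter in the HFD libraries alone. The 4 intestinal markers summed to 56.2 to 166 CPM, nearly all of it Fabp2 (116 ± 24.7 CPM in Fc mice under the HFD, beside 1.62 ± 0.47 CPM for Lgals4, SD, n = 10), with Cdx2 at 0 in every library and Cdx1 at 0 in all but 1 of the Fc standard diet mice, and Fabp2 was lower under the standard diet with both proteins. Of the 4 proliferation markers, Mki67 was lower with Fc(mML1)B3 under the standard diet and Ccnb1 lower under the standard diet in Fc(mML1)B3 mice, and the sum was 10.2 to 34.9 CPM. Within the diets, the stellate markers Des and Pdgfrb and the macrophage marker Gpnmb were lower with Fc(mML1)B3 under the standard diet, and the hepatocyte markers Hnf4a (HFD) and Cps1 (standard diet) were higher.

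Within groups, the biliary genes varied together. To describe this, each gene's log2 CPM was taken as its deviation from its group mean, and Pearson's r was computed over the 36 libraries for each pair of genes. The 28 pairs had r from 0.56 to 0.90, with a median of 0.83, and leaving out mouse 5 of the Fc(mML1)B3 HFD group gave 0.50 to 0.88. The libraries share the liver's cell makeup and their scaling, so these values are a description and carry no test.

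Sox9 was set apart from the other genes. Its 7 pairs had r from 0.56 to 0.73, while the other 21 pairs had r from 0.74 to 0.90 with a median of 0.86, and the closest pair was Epcam with Prom1. Sox9 also varied least between mice of a group, with a standard deviation of 0.46 on the log2 scale, against 0.71 for Krt23, 0.83 for Epcam and 1.08 for Cldn4. In the Fc mice under the HFD, Sox9 followed the rest nearly as closely as they followed each other, with r of 0.90 to 0.93 beside 0.86 to 0.97 for the other 21 pairs. In the Fc mice under the standard diet its 7 pairs had a median r of 0.04, and the other 21 pairs a median of 0.54, over a narrower range of levels. These mice span 2 runs of library numbers, and the deviations were not taken within runs. Median Sox9 was 22.9 CPM in the run of 5 and 19.6 CPM in the other 4. The other genes had the higher median in those 4, such as Krt7 at 4.07 beside 2.33 CPM. The part of the runs in these r was not tested.

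**Figure D3:**
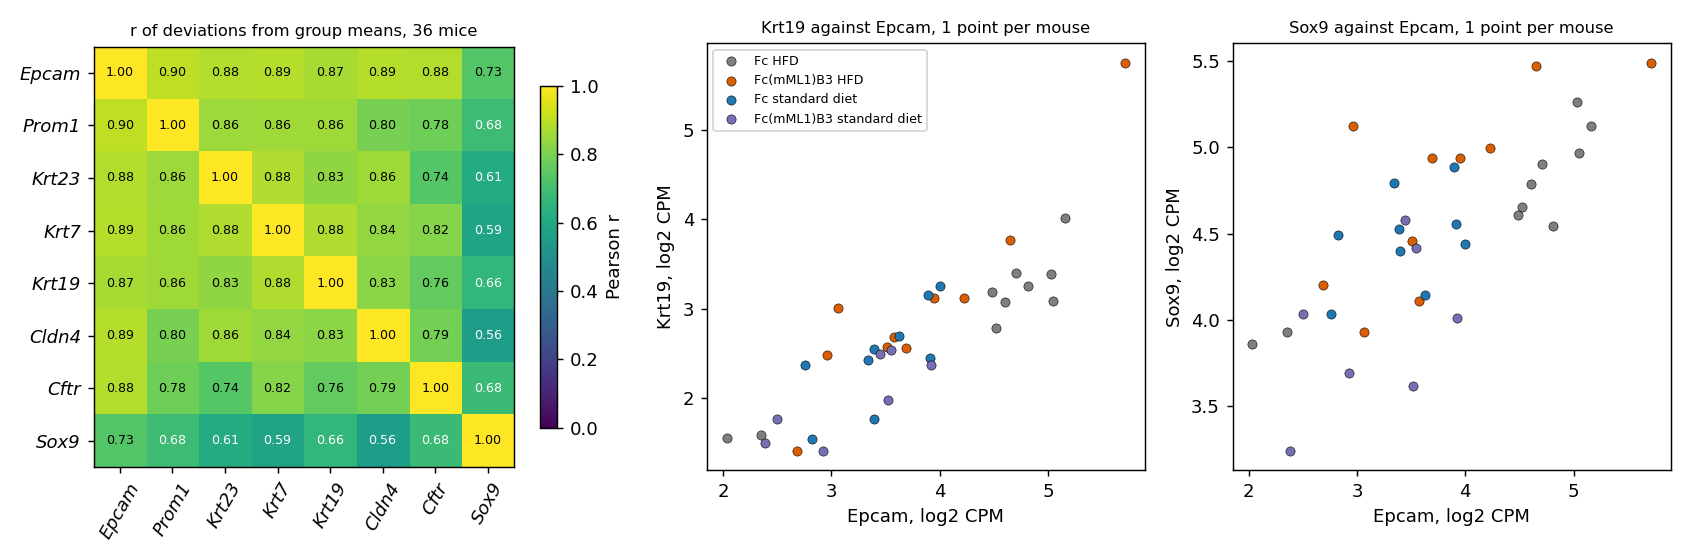
Left, Pearson r between the 8 genes over 36 mice, each value a deviation from the group mean of log2 CPM. Middle and right, Krt19 and Sox9 against Epcam in log2 CPM, 1 point per mouse coloured by group: Krt19 follows Epcam (r = 0.87) more closely than Sox9 does (r = 0.73).

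Genes whose deviations were most like those of each biliary gene were looked for among 12486 genes with a mean of at least 1 CPM, where the median r with any of the 8 genes was between -0.03 and 0.01. Epcam was followed most closely by Spp1, which encodes the secreted protein osteopontin (r = 0.98), Scara3 (0.96) and Ehf, an epithelial transcription factor (0.96). Prom1 was followed by Tspan8 (0.94), Ehf (0.93) and the protease inhibitor Spint1 (0.92). Krt7 was followed by Cd24a (0.92), Spp1 (0.92) and Enah (0.90), and Krt19 by Cbx6 (0.93), Pdzk1ip1 (0.92) and Cd24a (0.92). For Krt23 the nearest genes were Il17re (0.91), the claudin Cldn7 (0.91) and Spp1 (0.90), for Cldn4 they were Glis3 (0.92), Cldn7 (0.91) and Spp1 (0.90), and for Cftr they were Cd24a (0.90), the membrane protease St14 (0.89) and Epcam (0.88).

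Sox9 had other neighbours at lower values, namely Csf1, the growth factor of macrophages (0.82), the kinase Map3k1 (0.81) and Ninl (0.81). An r above 0.8 was reached by 225 genes with Epcam, 206 with Krt19, 204 with Prom1 and 3 with Sox9. Of the hepatocyte markers, Alb had the lowest r with Epcam (-0.74) and Ttr the lowest with Sox9 (-0.56). The 6 stellate markers had a median r of 0.73 with Epcam, from -0.02 for Lrat to 0.78 for Col3a1, and of 0.51 with Sox9, from -0.16 for Lrat to 0.61 for Pdgfrb. The 6 mesothelial markers had medians of 0.38 and 0.42, and among them Gpm6a reached 0.86 with Epcam and 0.72 with Sox9, above every stellate marker. The 6 macrophage markers had a median r of 0.39 with Epcam and 0.28 with Sox9, from Gpnmb, the highest (0.68 and 0.47), to the Kupffer cell marker Clec4f, the only negative one (-0.73 and -0.60).

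Since the 8 genes moved with Epcam, their RPKM was also expressed relative to that of Epcam in the same library, a measure chosen after the levels had been seen and given without a test. Under the HFD, the Krt19 ratio was 0.381 to 1.07 (median 0.558) in Fc mice and 0.606 to 1.55 (median 0.809) in Fc(mML1)B3 mice, and all 10 Fc(mML1)B3 mice were above the Fc median. The Krt7 ratio was 0.220 to 0.582 (median 0.261) and 0.275 to 0.547 (median 0.357), again with all 10 above. Epcam, the shared denominator, had medians of 25.2 CPM with Fc and 12.3 CPM with Fc(mML1)B3. The median CPM of Krt19 (8.70 and 7.14) and Krt7 (5.03 and 3.24) were not higher with Fc(mML1)B3, so these higher ratios are no gain in either keratin. For Sox9 the medians were 0.555 and 0.935, with 9 of 10 Fc(mML1)B3 mice above the Fc median.

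Krt23, Cldn4 and Cftr lay on the other side, and Prom1 leaned like Sox9. The Krt23 ratio had medians of 0.246 with Fc and 0.206 with Fc(mML1)B3 under the HFD, with 7 of 10 Fc(mML1)B3 mice below the Fc median, and the Cldn4 ratio had medians of 0.128 and 0.0722, with 9 of 10 below. For Cftr 7 of 10 were below the Fc median (0.0192 with Fc and 0.0162 with Fc(mML1)B3), and for Prom1 8 of 10 were above it (0.164 and 0.178). The groups overlapped for every gene. Under the standard diet the Krt19 ratio had medians of 0.789 with Fc and 0.736 with Fc(mML1)B3, and the Krt7 ratio 0.352 and 0.411. The Sox9 ratio lay the other way from the HFD, with medians of 0.999 and 0.906 and 5 of 7 Fc(mML1)B3 mice below the Fc median, as did the Krt19 ratio, also with 5 of 7 below. Below it lay 6 of 7 for Cftr (0.0379 and 0.0237), 5 of 7 for Cldn4 (0.108 and 0.0837) and 5 of 7 for Krt23 (0.307 and 0.257), and 5 of 7 lay above it for Prom1 (0.251 and 0.300).

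Cftr relative to Epcam was higher under the standard diet in most Fc mice. The ratio was 0.00860 to 0.0219 in Fc mice under the HFD and 0.0129 to 0.0572 in Fc mice under the standard diet, where 8 of 9 mice exceeded every HFD mouse. Cftr itself had median CPM of 1.496 and 1.17 in these groups and was not called, whereas Epcam was called lower.

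**Figure D4:**
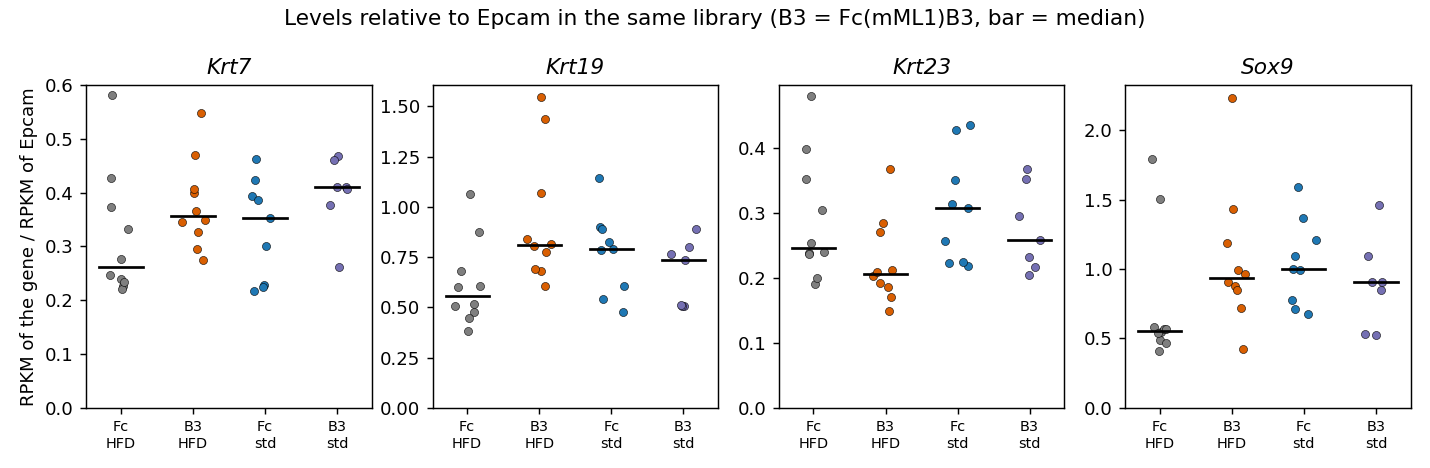
RPKM of Krt7, Krt19, Krt23 and Sox9 divided by the RPKM of Epcam in the same library, on linear axes from 0, by group (B3 stands for Fc(mML1)B3 and std for the standard diet). Points are mice and bars are medians: under the HFD all 10 Fc(mML1)B3 mice lie above the Fc median for Krt7 and Krt19, and 7 of 10 lie below it for Krt23. Epcam itself had the lower median CPM in the Fc(mML1)B3 mice under the HFD.

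Other genes of the same cells and pathways were read in 3 lists. Of 21 other biliary epithelial genes, 20 were tested. Under the HFD, 2 of the 20 were called lower with Fc(mML1)B3 and none higher, with a median log2 fold change of -0.26. The shares over all genes given above are the background for the counts in the 3 lists. Called lower were 6.68% under the HFD, 7.55% under the standard diet, 24.6% between the diets in Fc mice and 17.9% in Fc(mML1)B3 mice. Called higher were 8.14%, 8.56%, 23.3% and 20.7%, in the same order. The 2 lower under the HFD were the simple-epithelium keratins Krt18 (-0.32 ± 0.09, adjusted p = 0.026 by the edgeR quasi-likelihood test, Benjamini-Hochberg adjusted) and Krt8 (-0.27 ± 0.09, adjusted p = 0.0448), which hepatocytes also make. The Krt8 call was lost in 16 of 20 omissions of 1 mouse and the Krt18 call in 4 (Fc(mML1)B3 mice 3, 4, 6 and 9). Against the run of 4 Fc(mML1)B3 libraries alone neither was called, at -0.18 for Krt18 and -0.11 for Krt8, and against the run of 6 both were, at -0.40 and -0.38.

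Under the standard diet 4 of the 20 were called lower with Fc(mML1)B3 and none higher, with a median of -0.23. They were E-cadherin, Cdh1 (-0.36 ± 0.07), Krt18 (-0.28 ± 0.06), the cilium-associated Dcdc2a (-0.72 ± 0.19) and Bicc1 (-0.62 ± 0.20), with adjusted p of 0.00114, 0.00235, 0.0116 and 0.0386 by the edgeR quasi-likelihood test, Benjamini-Hochberg adjusted. Cdh1, Krt18 and Dcdc2a held in all 16 omissions and within the shared run of library numbers, and Bicc1 was lost in 8 omissions and within that run. Its estimate ran from -0.73 to -0.51 over the omissions and was -0.75 within that run (adjusted p = 0.0614 by the same edgeR test).

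Between the diets, 10 of the 20 were lower and 1 higher under the standard diet in Fc mice, with a median of -0.36. Among those lower were the claudins Cldn7 (-1.28 ± 0.32) and Cldn3 (-0.30 ± 0.07) and the secreted chaperone Clu (-0.28 ± 0.08), and the 1 higher was Cdh1 (0.57 ± 0.13), which hepatocytes also express. In Fc mice under the HFD the mean was 2304 CPM for Clu and 98.7 CPM for Cldn3, beside 6.25 CPM for Cldn7. How much of Clu and Cldn3 came from biliary cells was not tested. In Fc(mML1)B3 mice 4 were lower and none higher, with a median of -0.31, and among them were Cldn7 (-1.46 ± 0.35), the epithelial transcription factor Elf3 (-1.53 ± 0.35) and Clu (-0.31 ± 0.09). Over the 20 genes the median r with Epcam was 0.85, from -0.20 for Cldn3 to 0.98 for Spp1, and with Sox9 it was 0.67.

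Of 12 genes of bile duct secretion and bile acid sensing, 9 passed the filter under the HFD and between the diets, and 7 under the standard diet. The sodium-potassium-chloride carrier Slc12a2 was called higher with Fc(mML1)B3 under the HFD (0.56 ± 0.15, adjusted p = 0.0158 by the edgeR quasi-likelihood test, Benjamini-Hochberg adjusted), and none of the list was called under the standard diet. The median log2 fold changes were -0.01 and -0.05. The 4 Fc(mML1)B3 libraries in 1 run of library numbers gave 0.14 for Slc12a2 and the 6 in the other gave 0.80, so its estimate differed between runs.

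Between the diets in Fc mice, 4 of the 9 were lower and 2 higher under the standard diet. The water channel Aqp1 (-0.24 ± 0.07) was among the lower. So were the bile acid exporter subunit Slc51b and the secretin receptor Sctr, which were under the filter on low counts in the standard diet libraries alone and entered through the HFD libraries, where they were higher, so their calls are no support for the count. Slc51b was at 0.861 ± 0.628 CPM (SD, n = 10) in Fc mice under the HFD and 0.254 ± 0.164 CPM (SD, n = 9) under the standard diet. The bile acid importer Slc10a2 (0.82 ± 0.16) and Slc12a2 (0.58 ± 0.14) were the higher. In Fc(mML1)B3 mice Aqp1 was lower (-0.27 ± 0.08) and the anion exchanger Slc4a2 higher (0.25 ± 0.07). The list's median r with Epcam was 0.31, with the chloride channel Ano1 the highest at 0.82 and the sodium channel subunit Scnn1a the lowest at -0.60.

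Of 13 signals of the ductular reaction, 11 were tested under the HFD, and 3 were lower with Fc(mML1)B3 and none higher, with a median of -0.06. The 3 were Ncam1, an adhesion molecule of reactive ductules and of activated stellate cells (-1.18 ± 0.33), the growth factor receptor Fgfr2 (-0.50 ± 0.13) and the Hippo pathway coactivator Wwtr1 (-0.32 ± 0.07), with adjusted p of 0.0184, 0.0118 and 0.00509 by the edgeR quasi-likelihood test, Benjamini-Hochberg adjusted. All 3 held in the 20 omissions of 1 mouse. Against the Fc(mML1)B3 libraries of 1 run of numbers only, they were called with the run of 4 and not with the run of 6. With the run of 6 the estimates were -0.95 for Ncam1, -0.33 for Fgfr2 and -0.26 for Wwtr1. Their adjusted p were 0.132, 0.132 and 0.0507 by the same edgeR test.

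Under the standard diet 2 of 12 were lower with Fc(mML1)B3 and none higher, namely the receptor Notch1 (-0.34 ± 0.11) and the Notch target Hes1 (-0.41 ± 0.13), with a median of -0.12 for the list. Their adjusted p were 0.0389 and 0.0397 by the edgeR quasi-likelihood test, Benjamini-Hochberg adjusted, each was lost in 11 of 16 omissions of 1 mouse, and neither was called within the shared run of library numbers, where Notch1 was at -0.13 and Hes1 at -0.42. Of the 13, Wwtr1 was called for the difference between the diets in the treatment effect (0.36 ± 0.11, adjusted p = 0.0242 by the same edgeR test).

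Between the diets the 13 signals moved both ways. The background is 23.3% of all genes called higher and 24.6% lower in Fc mice, and 20.7% and 17.9% in Fc(mML1)B3 mice. In Fc mice under the standard diet Notch1 (0.53 ± 0.11) and the Hippo pathway coactivator Yap1 (0.29 ± 0.05) were among 4 higher, and Ncam1 (-1.52 ± 0.32) was 1 of 2 lower, with a median of -0.13. In Fc(mML1)B3 mice Wwtr1 (0.34 ± 0.08) and Notch2 (0.32 ± 0.08) were among 3 higher and Ncam1 (-0.92 ± 0.36) was 1 of 2 lower, with a median of -0.31. Both counts of higher genes include the integrin subunit Itgb8, which was under the filter in the HFD libraries alone and entered through the standard diet libraries, so its calls are no support for them. Its level was 0.145 ± 0.0875 CPM (SD, n = 10) in Fc and 0.134 ± 0.186 CPM (SD, n = 10) in Fc(mML1)B3 mice under the HFD, with 1 and 4 libraries at 0, and 0.653 ± 0.504 CPM (SD, n = 9) and 0.409 ± 0.228 CPM (SD, n = 7) under the standard diet. The Ncam1 call in Fc(mML1)B3 mice was lost in 6 of 36 omissions, all of Fc(mML1)B3 mice, with -0.50 as the smallest estimate. With Sox9, the signal with the highest r was the Notch ligand Jag1 (0.74), and with Epcam it was the integrin subunit Itgb6 (0.86).

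**Figure D5:**
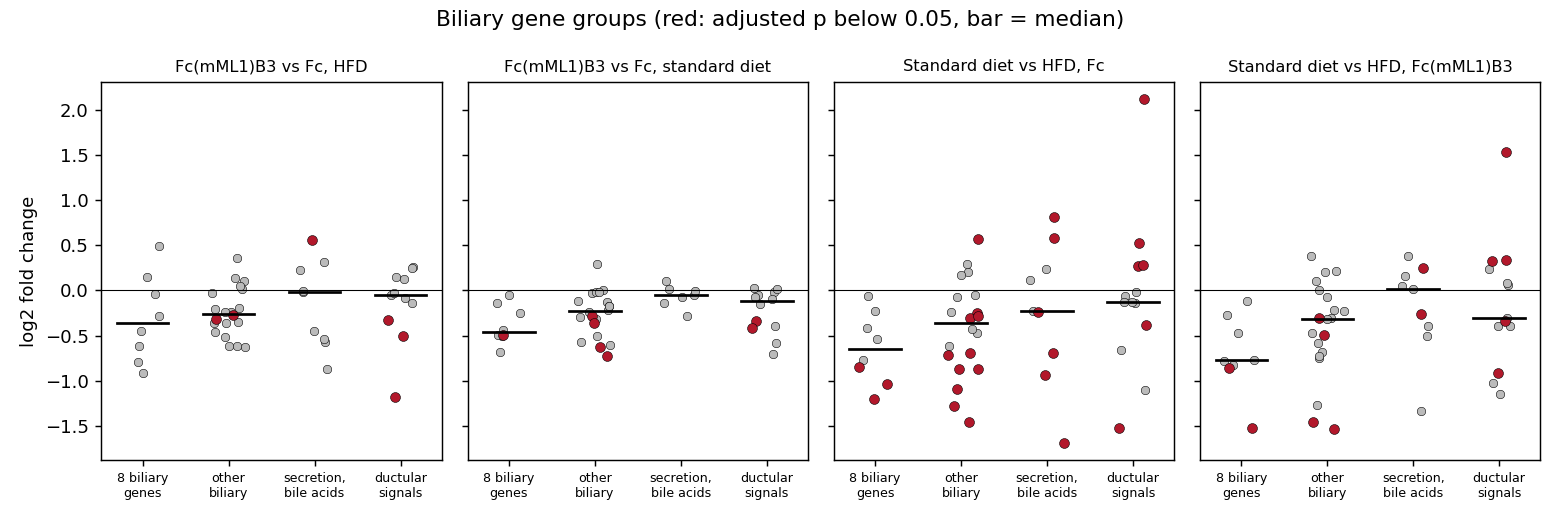
Log2 fold change of the 8 genes and of the tested genes of the 3 lists in the 4 comparisons. Points are genes, red where the adjusted p was below 0.05, and bars are medians: the medians of the 8 genes and of the other biliary genes lie below 0 in all 4 panels.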

How the data were processed

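Liver RNA of 36 mice was sequenced as paired 100-base reads after MGIEasy directional library preparation. The authors deposited raw counts per gene, 1 file per library. Per the methods and the submitters' processing notes, reads were trimmed with fastp, cleared of ribosomal RNA with Bowtie2 2.4.5, aligned to mm10 with STAR 2.7.10a and counted with featureCounts of Subread 2.0.3. Per the file headers, counting used no strand setting, so antisense reads were included, and counted reads rather than read pairs, so each fragment can enter as a pair of counts.

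Counts were tested with edgeR 4.0.16 in R 4.3.3 (quasi-likelihood test, TMM scaling, filterByExpr, Benjamini-Hochberg adjustment over all genes tested). Each diet was fitted alone, and the 3 comparisons across diets came from 1 fit over 36 libraries. CPM were TMM-scaled over the 36 libraries, and log2 CPM for deviations had a prior count of 2. Permutation tests used log2(CPM + 0.5). The models were tested on simulated data first. The 8 genes, the 3 gene lists and the 7 marker lists were chosen with earlier results of these data known. All 8 genes are named throughout, and of each list at most 4 called genes per comparison, those with the smallest p. A gene that this rule names is not reported here.

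Alternatives were DESeq2 1.42.0, upper quartile and median-of-ratios scaling, other filters, the adjusted p and fold limits of the study's figure legends, a replicate block, single runs of library numbers and the omission of each mouse. Same-numbered mice of the 2 groups did not deviate together, with r above 0.1 in 2 of 10 pairs under the HFD and 0 of 7 under the standard diet, so the numbers were not used as pairs. No 2 libraries of a group agreed within sampling noise (lowest chi-square per degree of freedom 6.06 over 147 pairs). The library numbers come from the headers and mark neither a date nor an extraction.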

Additional observations from a re-analysis of the deposited data

Results flagged for a closer look

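In 6 of the 8 genes, mouse 5 of the Fc(mML1)B3 HFD group stood apart from its group by Dixon's test at the 95% level. It measured 14.7 CPM for Krt7 (next mouse 7.69), 54.0 CPM for Krt19 (next 13.6), 52.3 CPM for Epcam (next 25.03), 5.45 CPM for Cldn4 (next 1.94), 2.67 CPM for Cftr (next 1.29) and 20.8 CPM for Prom1 (next 10.7). For Krt23 and Sox9 it was also the highest of its group but within the reach of the next mouse. The gap was largest relative to the group's range for Krt19, at 0.786. In all, 32 groups of mice were tested, on CPM that were not logged. Chance marks about 1 in 20 only where such values are normally distributed. Whether the marks hold on the log2 scale was not tested. The 6 marks are 1 mouse in 6 genes that varied together within its group, so they are not 6 independent events.

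The effect of Fc(mML1)B3 on Wwtr1, which encodes the coactivator TAZ, differed between the diets by 0.36 on the log2 scale (adjusted p = 0.0242 by the edgeR quasi-likelihood test, Benjamini-Hochberg adjusted), being negative under the HFD. Without mouse 4 of the Fc(mML1)B3 standard diet group the adjusted p was 0.055 by the same edgeR test, and over all 36 omissions the difference ran from 0.31 to 0.38. Wwtr1 was the 1 call among 13 signals, beside 4.4% of all genes called in the lower and 4.66% in the higher direction.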

How the results depend on the processing

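Between the diets and for the difference of the effects, the count of the 8 genes called stayed within 1.5 times its value under every scaling, filter and tool tried. Under the standard diet the count of 1 (Sox9) became 0 with the adjusted p and fold limits of the study's figure legend (its text states another limit for this diet), with the replicate block (log2 fold change -0.57, adjusted p = 0.0586 by edgeR's quasi-likelihood test) and within the shared run of library numbers. The block also ended the calls of Krt18 (log2 fold change -0.32, adjusted p = 0.0525 by edgeR) and Krt8 (-0.28, 0.0821) under the HFD and of Dcdc2a (-0.60, 0.0663), Bicc1 (-0.60, 0.145), Notch1 (-0.40, 0.0565) and Hes1 (-0.44, 0.08) under the standard diet. The limits of the legends, which leave the estimates as they are, ended the calls of Krt18, Krt8, Slc12a2, Wwtr1 and Fgfr2 under the HFD and of Cdh1, Krt18, Notch1 and Hes1 under the standard diet. Leaving out 1 mouse at a time gave 0 to 2 called genes under the HFD, 0 to 1 under the standard diet, 3 to 4 between the diets in Fc mice, 2 to 4 in Fc(mML1)B3 mice (4 without HFD mouse 10) and 0 to 0 for the difference of the effects.

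Several uncalled estimates changed sign. Krt19 under the HFD (0.49 ± 0.42) was -0.20 with DESeq2 and -0.20 against the run of 4 libraries, where Sox9 was -0.28. Prom1 was -1.04 against the run of 4 and 0.085 against the run of 6, and Krt7 -0.53 and 0.23. With the replicate block, Krt7 was 0.16 and Prom1 0.021 under the standard diet. The difference of the effects for Krt7 was -0.0031 with upper quartile scaling, -0.011 with median-of-ratios factors and -0.0049 without a filter. The exact permutation p of Krt7 under the standard diet was 0.983 with 2 added to CPM. Over omissions of 1 mouse, Krt7 ran from -0.39 to 0.11 under the HFD, from -0.16 to 0.10 under the standard diet and from -0.15 to 0.36 for the difference of the effects, Krt19 from -0.20 to 0.66 under the HFD, Cftr from -0.19 to 0.084 and from -0.33 to 0.24 between the diets in Fc and Fc(mML1)B3 mice and from -0.29 to 0.30 for the difference, and Prom1 from -0.38 to 0.13 between the diets in Fc(mML1)B3 mice.

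Over all genes, 1972 calls under the HFD became 178 with the adjusted p and fold limits of the legends together, 1294 with the block and 705 against the run of 4, and 2186 under the standard diet became 320, 1302 and, within the shared run, 942. Upper quartile scaling moved the split of calls from 3471 lower and 3288 higher to 4795 and 2523 between the diets in Fc mice, from 2520 and 2914 to 3799 and 2208 in Fc(mML1)B3 mice, and from 889 and 1083 to 1075 and 865 under the HFD. With it Epcam was also called between the diets in Fc(mML1)B3 mice (adjusted p = 0.0453 by edgeR's test), as it was in 5 of 36 omissions. Except as stated, the cause of each change was not tested. Cldn4 and Cftr had the lowest medians, 25 and 22 counts, and how much of their spread is counting error was not tested.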

Other observations

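Among the 9 Fc mice of the standard diet, the 5 libraries of the separate run of numbers and the 4 of the shared run differed in opposite directions for different biliary genes. Krt7 was 1.17 to 2.83 CPM in the 5 and 2.38 to 5.18 CPM in the 4, Krt23 was 1.60 to 2.46 and 2.17 to 4.16 CPM, and Prom1 was 2.33 to 7.80 and 5.00 to 8.22 CPM, while Sox9 was 21.0 to 29.5 and 16.3 to 23.4 CPM. Within the shared run, the log2 fold change of Fc(mML1)B3 against Fc was -0.45 for Krt7, -0.68 for Krt19 and -0.75 for Krt23, with adjusted p of 0.314, 0.0943 and 0.0947 by the edgeR quasi-likelihood test, Benjamini-Hochberg adjusted, and none of the 8 genes was called.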
